A study of Homo sapiens with 15 samples.

Results

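The 9 genes described here, IGF2BP3, UBE3C, NRBP1, TULP3, SLC25A24, SH3PXD2A, EMR2, LAMB3 and OLFML2A, rose with knockdown of RNF5 in each of 3 acute myeloid leukemia (AML) cell lines. They were chosen, as less studied genes, from 17 genes called up in all 3 lines, out of 11072 genes above 0 in every line and 57820 gene identifiers in the tables. The other genes among the 17 passed the same calls and are not described. RNA-seq libraries came from MOLM-13, U937 and HL-60, established human myeloid lines that carried either the empty lentiviral vector pLKO or a hairpin that targets RNF5 (shRNF5). The 15 libraries comprised 3 pLKO and 2 shRNF5 libraries of MOLM-13, 2 and 2 of U937, and 3 and 3 of HL-60. All groups were therefore transduced cells, and each line is a single established culture. The sample labels place the harvest 7 days after knockdown and the series design 5 days after it. The labels name a 3′ end kit and the study's methods a directional poly(A) kit, and which RNF5 hairpin was sequenced is not given in the sources used here. Nothing in the labels says whether replicates were separate transductions, so the spread between replicates may be technical.

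RNF5 is a RING-type ubiquitin ligase anchored in the membrane of the endoplasmic reticulum, where it marks misfolded and other proteins for degradation. It acts on proteins, so a change in the transcript of another gene after its loss is an indirect readout. The 9 genes have no pathway in common. IGF2BP3 is an oncofetal protein that binds mRNAs and affects their stability and translation, UBE3C is a HECT-type ubiquitin ligase that extends chains on substrates at the proteasome, and NRBP1 is a pseudokinase that binds TSC22 proteins and elongin-type ubiquitin ligases. TULP3 carries membrane receptors into the primary cilium, SLC25A24 exchanges ATP-Mg for phosphate across the inner mitochondrial membrane under control of calcium, and SH3PXD2A (TKS5) is a scaffold that SRC phosphorylates and that invadopodia and podosomes need. EMR2 (ADGRE2) is an adhesion receptor of myeloid cells, LAMB3 is the β chain of laminin-332, a basement membrane protein typical of epithelia, and OLFML2A is a secreted protein with an olfactomedin domain.

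The genes were chosen for a shared direction of change, and the 250 bases upstream of each annotated start were read from RefSeq (GRCh38.p14), in which 8 of the 9 genes were matched. The windows of 4 of them are shown, those of the 3 genes that act on RNA or proteins and that of TULP3, since they hold the motifs and the repeat described next. Capitals mark the motifs searched on both strands, and the sequences run 5′ to 3′ on the strand of the gene. They lie at chr7:23470492-23470741 (reverse strand) for IGF2BP3, chr7:157138676-157138925 (forward) for UBE3C, chr2:27428381-27428630 (forward) for NRBP1 and chr12:2890641-2890890 (forward) for TULP3.
IGF2BP3: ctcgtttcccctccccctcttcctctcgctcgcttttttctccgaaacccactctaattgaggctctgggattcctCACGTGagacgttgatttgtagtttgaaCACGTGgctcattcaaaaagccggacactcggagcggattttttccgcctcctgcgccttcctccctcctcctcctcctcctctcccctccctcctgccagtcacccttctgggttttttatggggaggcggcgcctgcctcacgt
UBE3C: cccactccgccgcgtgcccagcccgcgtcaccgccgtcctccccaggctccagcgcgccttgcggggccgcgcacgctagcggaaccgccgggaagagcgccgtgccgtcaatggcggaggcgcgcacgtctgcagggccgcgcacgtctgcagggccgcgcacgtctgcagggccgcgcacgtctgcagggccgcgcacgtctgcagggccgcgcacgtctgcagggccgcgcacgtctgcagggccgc
NRBP1: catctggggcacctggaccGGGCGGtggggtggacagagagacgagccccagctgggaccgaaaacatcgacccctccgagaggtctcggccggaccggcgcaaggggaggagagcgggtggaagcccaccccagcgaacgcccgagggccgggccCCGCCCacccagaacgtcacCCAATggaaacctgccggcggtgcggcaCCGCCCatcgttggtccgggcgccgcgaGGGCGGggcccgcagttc
TULP3: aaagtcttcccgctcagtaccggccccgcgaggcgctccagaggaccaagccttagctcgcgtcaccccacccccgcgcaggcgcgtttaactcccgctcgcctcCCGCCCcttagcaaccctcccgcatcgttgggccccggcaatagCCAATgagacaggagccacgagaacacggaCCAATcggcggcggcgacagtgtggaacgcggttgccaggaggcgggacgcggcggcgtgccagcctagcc
The GC box GGGCGG was found in 5 of the 8 windows (NRBP1, TULP3, SH3PXD2A, LAMB3 and OLFML2A), against 42.2% of 27305 promoters of the same length. The CCAAT box was present in 2 (NRBP1 and TULP3), against 33.0%. An E-box (CACGTG) occurred only upstream of IGF2BP3, with 2 matches, and 6.46% of all promoters held one. SLC25A24 alone held the ETS core CCGGAAG, which 8.78% of promoters held. TATAAA (11.2% of promoters) and the AP-1 site TGANTCA (6.57%) were in none of the 8 windows. UBE3C carried none of the 6 motifs, and its window instead held 7 tandem copies of an 18-base unit, cgcgcacgtctgcagggc. No motif was therefore common to the 8 windows, and these matches are descriptions of the letters only.

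In the annotation of hg19 (GRCh37) the genes lie on 7 chromosomes. IGF2BP3 (23349828 to 23510110, reverse strand) and UBE3C (156931620 to 157062064, forward) are both on chromosome 7, and SLC25A24 (108676665 to 108743471) and LAMB3 (209788215 to 209825770) are both on the reverse strand of chromosome 1. NRBP1 spans 27650657 to 27665126 on chromosome 2 (forward), OLFML2A spans 127539412 to 127577164 on chromosome 9 (forward) and SH3PXD2A spans 105353784 to 105615342 on chromosome 10 (reverse). TULP3 lies on chromosome 12 from 2986389 to 3050304 (forward) and EMR2 on chromosome 19 from 14843204 to 14889372 (reverse). Their median gene span was 63.9 kb, against 30.2 kb for all genes above 0 in every line that had an annotation, and 8 of the 9 were above that median. They had a median of 15 exons in the longest transcript, against 8, and a median transcript of 4305 bases, against 3735.

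The values are read counts that the authors normalized within each line and rounded. Levels in different lines were therefore set on a common scale only for the baseline described further on, without a test. Log2 fold changes are those of limma on log2(normalized read count + 1), a scale that understates the change of low genes. A gene counted as called up when its Benjamini-Hochberg adjusted p was under 0.1 and its log2 fold change over 0.4. The 9 genes were chosen from these calls, so their own changes are given as a description. The estimated depth was between 9700000 and 63100000 counted reads per library. The MOLM-13 groups did not overlap in depth, with 9700000 to 15300000 reads with pLKO and 24400000 and 63100000 with shRNF5, and the part of this in the results was not tested. All 9 myeloid markers searched were above 0 in all 6 groups. RNF5 itself had 1223, 1017 and 1020 normalized read counts with pLKO and 76 and 81 with shRNF5 in MOLM-13, 648 and 843 against 46 and 74 in U937, and 506, 689 and 545 against 37, 133 and 43 in HL-60. RNF5 was thus lower in all 7 shRNF5 libraries than in any control of their line, and the second HL-60 library kept the most RNF5. The libraries are of whole cultures, in which fewer or more cells of a kind and less or more RNA per cell cannot be told apart.

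**Figure D1:**
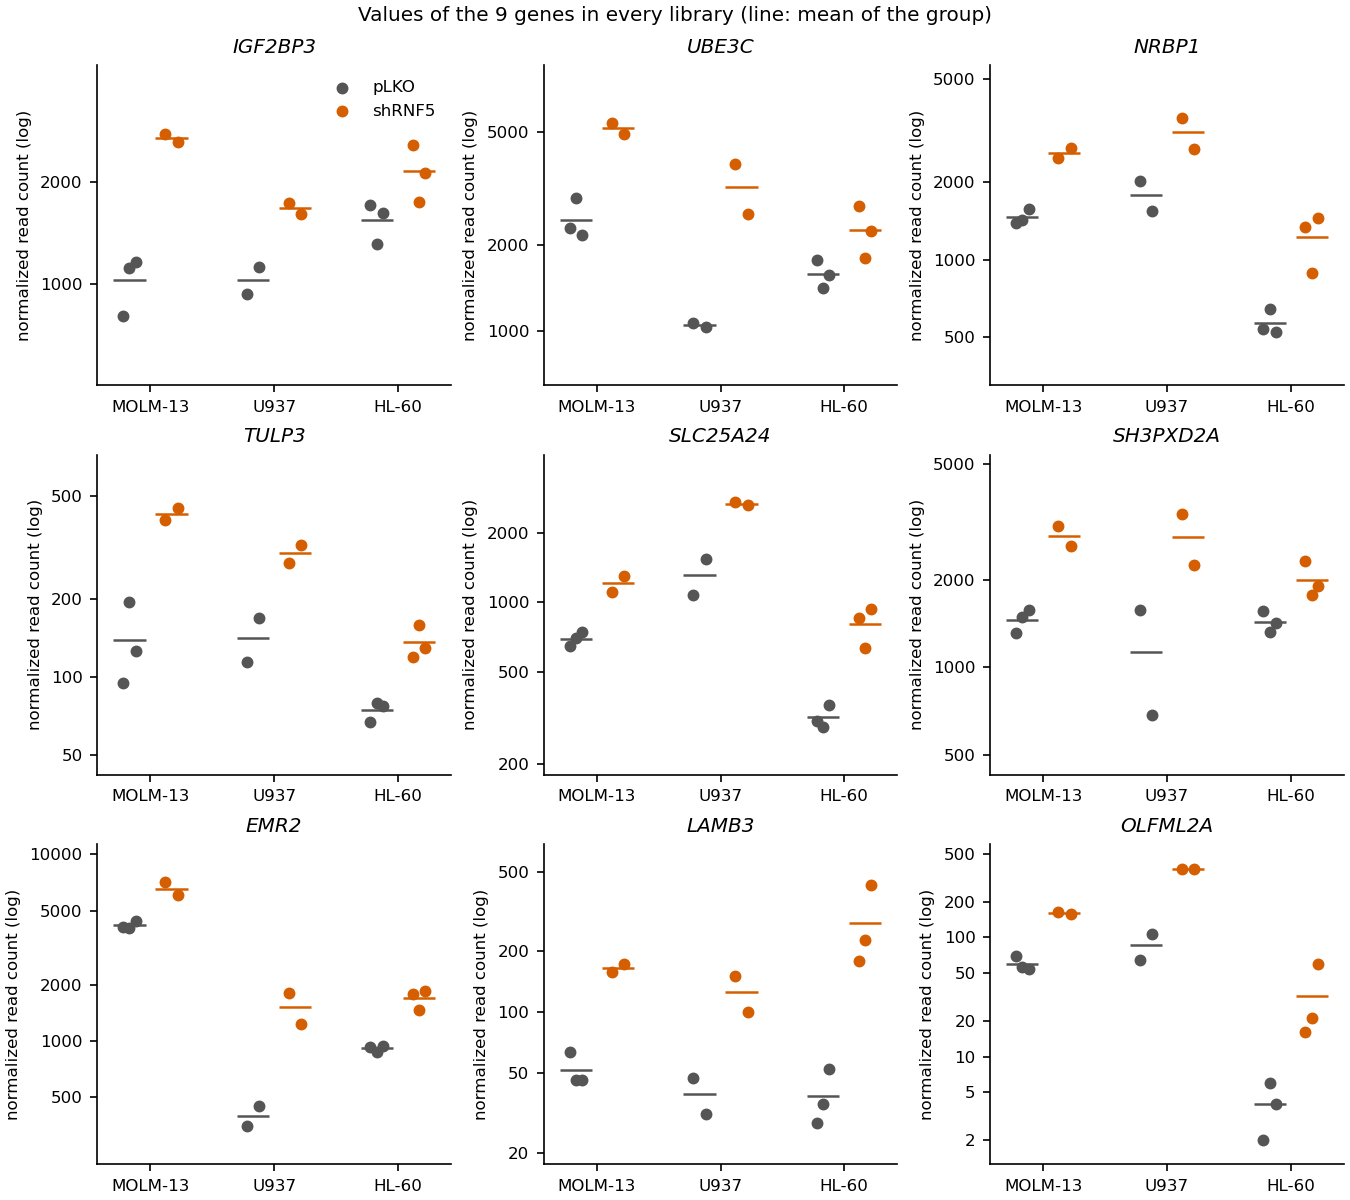
Normalized read count (log axis) of each of the 9 genes in every library, by line, with pLKO in grey and shRNF5 in orange and a line at the mean of each group. In every panel all shRNF5 points of a line lie above all pLKO points of that line, with the smallest gap for UBE3C and IGF2BP3 in HL-60.

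All 9 genes were called up in all 3 lines by the way they were chosen, where the share of all tested genes called up was 1.03% (of 13026) in MOLM-13, 6.92% (of 13165) in U937, 13.6% (of 12570) in HL-60. Each of the 9 also had every shRNF5 library above every pLKO library of its line, which held for 19.6%, 29.0% and 19.9% of all tested genes in the order MOLM-13, U937, HL-60. The median log2 fold change of the 9 genes was 1.08, 1.40 and 0.89 in the same order, beside 0.00, 0.05 and 0.01 over all 11072 genes. The call nearest the threshold was that of IGF2BP3 in U937, at an adjusted p-value of 0.0993. Just outside were MYH9, which missed in U937 with a log2 fold change of 0.81 and an adjusted p-value of 0.111, MAPK6, which missed in MOLM-13 with 0.61 and 0.111, and ITGA5, which missed in MOLM-13 with 0.74 and 0.115. In total 107 genes were called up in 2 lines and had a positive change without a call in the third. In the lines with fewer libraries the calls did not all hold when a library was left out, in fits where an arm could have 1 library, assumed to vary like the other group. In limma, 0 of 9 were called in MOLM-13 without pLKO replicate 2 or without either shRNF5 library and 1 without pLKO replicate 3, and in U937 0 of 9 were called without pLKO replicate 2 or either shRNF5 library and 6 without pLKO replicate 3, whereas in HL-60 at least 6 were called in each such fit. The 9 genes were chosen on this same contrast, so p-values for them with a library left out are no separate evidence and are not given. Over these fits the log2 fold changes stayed above 0, from 0.53 to 1.95 in MOLM-13 and from 0.57 to 2.54 in U937.

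Among the genes that act on RNA and on protein turnover, IGF2BP3 rose most in MOLM-13. Its normalized read counts there were 804, 1117 and 1160 with pLKO and 2776 and 2628 with shRNF5. U937 had 936 and 1127 with pLKO and 1735 and 1616 with shRNF5, and HL-60 had 1710, 1318 and 1627 against 2579, 1755 and 2128. The groups were far apart in MOLM-13, whereas in HL-60 the lowest shRNF5 library was 1.03 times the highest pLKO library. The log2 fold changes were 0.46 ± 0.16 (SE) in HL-60, 0.70 ± 0.24 in U937 and 1.41 ± 0.19 in MOLM-13.

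UBE3C, the proteasome-bound ubiquitin ligase, rose most in U937. Its values were 1068 and 1029 with pLKO and 3852 and 2588 with shRNF5 in that line. MOLM-13 had 2297, 2925 and 2167 with pLKO and 5385 and 4939 with shRNF5, while HL-60 had 1774, 1410 and 1576 against 2754, 1801 and 2250. Only in the second HL-60 shRNF5 library did the value come close to the controls, at 1.02 times the highest of them. Its log2 fold change reached 1.59 ± 0.26 in U937, beside 1.08 ± 0.16 in MOLM-13 and 0.50 ± 0.16 in HL-60.

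NRBP1, the pseudokinase, had changes of similar size in the 3 lines. In MOLM-13 it had 1392, 1430 and 1570 with pLKO and 2481 and 2698 with shRNF5, in U937 2018 and 1545 against 3540 and 2693, and in HL-60 538, 645 and 522 against 1336, 884 and 1450. The pLKO replicates lay close together in MOLM-13, with the highest 1.13 times the lowest. Its log2 fold changes were 0.82 ± 0.14, 0.81 ± 0.26 and 1.08 ± 0.18 for MOLM-13, U937 and HL-60.

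TULP3, the ciliary adaptor, was expressed at low levels. MOLM-13 had 95, 195 and 126 normalized read counts with pLKO and 402 and 450 with shRNF5. U937 had 114 and 169 against 275 and 324, and HL-60 had 67, 79 and 77 against 119, 159 and 129. The pLKO values in MOLM-13 differed by up to 2.05 times among themselves, yet the lowest shRNF5 library was 2.06 times the highest of them. Log2 fold changes were 1.67 ± 0.31, 1.10 ± 0.36 and 0.85 ± 0.20. Its annotated pseudogene TULP3P1 is listed at 0 in all libraries, which the authors' filter also gives to genes with few reads.

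SLC25A24, the mitochondrial ATP-Mg carrier, went up in the opposite order of lines, least in MOLM-13 and most in HL-60. Its values were 648, 704 and 743 against 1109 and 1308 in MOLM-13 and 1082 and 1540 against 2722 and 2632 in U937. In HL-60 they were 307, 288 and 361 with pLKO and 857, 636 and 938 with shRNF5, so that even the lowest knockdown library was 1.76 times the highest control. Log2 fold changes were 1.33 ± 0.17 in HL-60, 1.05 ± 0.26 in U937 and 0.79 ± 0.16 in MOLM-13. Both annotated pseudogenes of SLC25A24 are listed at 0 throughout.

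SH3PXD2A, the invadopodium scaffold, had the widest spread between controls in U937. There it had 1579 and 686 with pLKO and 3350 and 2245 with shRNF5. MOLM-13 had 1316, 1494 and 1568 against 3052 and 2602, and HL-60 had 1562, 1323 and 1416 against 2313, 1777 and 1904. Even with that spread, the lower U937 shRNF5 library was 1.42 times the higher pLKO library. The log2 fold change was largest in U937, at 1.40 ± 0.37, with 0.95 ± 0.15 in MOLM-13 and 0.47 ± 0.13 in HL-60, and in U937 it was 0.80 without pLKO replicate 3.

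EMR2, the myeloid adhesion receptor, was by far more abundant in MOLM-13 than in the other lines and rose least there. Its normalized read counts in MOLM-13 were 4077, 4013 and 4388 with pLKO and 7076 and 6022 with shRNF5. U937 had 351 and 448 against 1813 and 1241, and HL-60 had 927, 874 and 945 against 1782, 1475 and 1859. The controls were tight in HL-60 and MOLM-13, with the highest 1.08 and 1.09 times the lowest. Log2 fold changes were 1.92 ± 0.29 in U937, 0.89 ± 0.13 in HL-60 and 0.65 ± 0.14 in MOLM-13. EMR2 shares much of its extracellular sequence with CD97, and reads that match both could be credited to either, so its level is uncertain to that extent.

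LAMB3, the laminin chain, was low in every line with pLKO and rose most in HL-60. The values were 63, 46 and 46 against 158 and 173 in MOLM-13, and 47 and 31 against 151 and 100 in U937. In HL-60 they were 28, 35 and 52 with pLKO and 179, 227 and 427 with shRNF5. The third HL-60 knockdown library was the highest of all 15, and the ranges were separated by 3.44 times in that line. Log2 fold changes were 1.67 ± 0.28, 1.66 ± 0.48 and 2.77 ± 0.33, and in HL-60 the value lay between 2.41 and 3.04 with single libraries left out. As LAMB3 is mostly known from epithelia, epithelial markers were read beside it. EPCAM, CDH1, KRT5 and KRT19 are listed at 0 in all 15 libraries, and all 7 epithelial markers are listed at 0 in U937. The sum of the 7 was 567 to 876 with pLKO and 878 to 983 with shRNF5 in MOLM-13, from KRT8, KRT18 and ESRP1, and 6 to 8 against 18 to 25 in HL-60, from KRT8 alone. A listed 0 can also be a gene that failed the authors' filter, and the part of these markers in the rise of LAMB3 was not tested.

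OLFML2A, the secreted olfactomedin-domain protein, was close to the detection limit in HL-60 controls. It had 2, 6 and 4 normalized read counts with pLKO and 16, 21 and 60 with shRNF5 in HL-60. In U937 it had 64 and 107 against 378 and 377, and in MOLM-13 70, 56 and 54 against 163 and 158. HL-60 values correspond to about as many reads, since the scaling factors of these libraries were between 0.783 and 1.21, and the fold change in that line has the largest standard error of the 27. Log2 fold changes were 2.59 ± 0.55 in HL-60, 2.18 ± 0.38 in U937 and 1.41 ± 0.27 in MOLM-13.

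**Figure D2:**
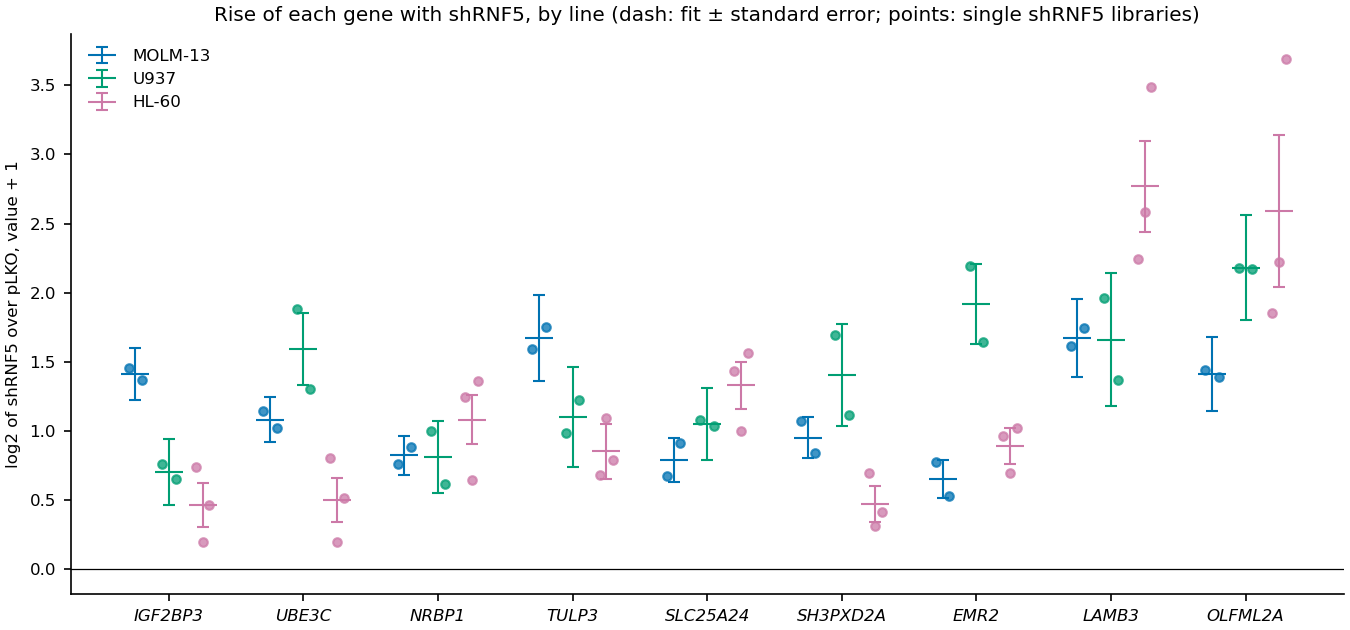
Log2 fold change of shRNF5 over pLKO (value + 1) for each gene in MOLM-13 (blue), U937 (green) and HL-60 (pink), with a dash at the limma estimate, bars of 1 standard error and points for single shRNF5 libraries. EMR2 and UBE3C stand highest in U937, IGF2BP3 and TULP3 in MOLM-13, and LAMB3 in HL-60, while the points of NRBP1 overlap between all lines.

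No line led throughout in the size of the rise. The largest of the 3 estimates was that of MOLM-13 for 2 genes (IGF2BP3 and TULP3), of U937 for 3 (UBE3C, SH3PXD2A and EMR2) and of HL-60 for 4 (NRBP1, SLC25A24, LAMB3 and OLFML2A). Over the 27 pairs of lines, the rises of the single shRNF5 libraries did not overlap in 18 and overlapped in 9, beside 68.7% of such pairs without overlap over all 11072 genes, so the share for the 9 genes was near that of all genes. EMR2 rose more in U937 than in MOLM-13, by a difference of log2 fold changes (MOLM-13 minus U937) of -1.27 ± 0.26 (SE), and more than in HL-60, by 1.03 ± 0.25 (U937 minus HL-60). UBE3C likewise rose more in U937 than in HL-60, by 1.09 ± 0.28. IGF2BP3 rose more in MOLM-13, by 0.95 ± 0.26 than in HL-60 and by 0.71 ± 0.29 than in U937. LAMB3 went the other way, with -1.10 ± 0.50 for MOLM-13 minus HL-60 and -1.11 ± 0.53 for U937 minus HL-60, while its rises in MOLM-13 and U937 differed by only 0.01 ± 0.55. The 3 differences of NRBP1 lay between -0.27 and 0.02 with standard errors of 0.27 to 0.30, and its library ranges overlapped in all 3 pairs. For OLFML2A the difference between U937 and HL-60 (-0.41 ± 0.67) was smaller than its error.

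The control levels of the genes were compared between the lines after all libraries had been put on a common scale by the median of gene-wise ratios. In 19 of the 27 pairs of lines the pLKO ranges did not overlap, beside 66.9% of such pairs over all genes, which is again a share near that of all genes. EMR2 with pLKO was 7.15 times higher in MOLM-13 than in U937 and 2.87 times higher than in HL-60, and with shRNF5 these ratios were 3.03 and 2.46. OLFML2A with pLKO was 19.6 times higher in U937 and 9.46 times higher in MOLM-13 than in HL-60, and with shRNF5 10.6 and 3.17 times higher. SLC25A24 was 3.77 times higher in U937 than in HL-60 with pLKO, and NRBP1 was 2.88 times higher. IGF2BP3 was highest in HL-60, at 2.40 times the level in MOLM-13 and 1.64 times that in U937. After knockdown the ranges of HL-60 and MOLM-13 overlapped for this gene.

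LAMB3 had the most even baseline, with overlapping pLKO ranges in all 3 pairs and the largest ratio being 1.18 (HL-60 over MOLM-13). Its lines moved apart with shRNF5, where HL-60 reached 2.63 times the level in MOLM-13 and 2.45 times that in U937. SH3PXD2A differed without overlap only between HL-60 and MOLM-13, by 1.56 times, and TULP3 only between U937 and HL-60, by 1.75 times. UBE3C was at the same level in MOLM-13 and HL-60, at a ratio of 1.02 with overlapping ranges, and lower in U937 by 1.61 and 1.65 times. For 6 of the 9 genes the line with the lowest control level was also the line with the largest rise (IGF2BP3, UBE3C, NRBP1, SLC25A24, EMR2 and OLFML2A). This held for 54.2% of all 11072 genes, and both quantities are computed from the same pLKO libraries.

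**Figure D3:**
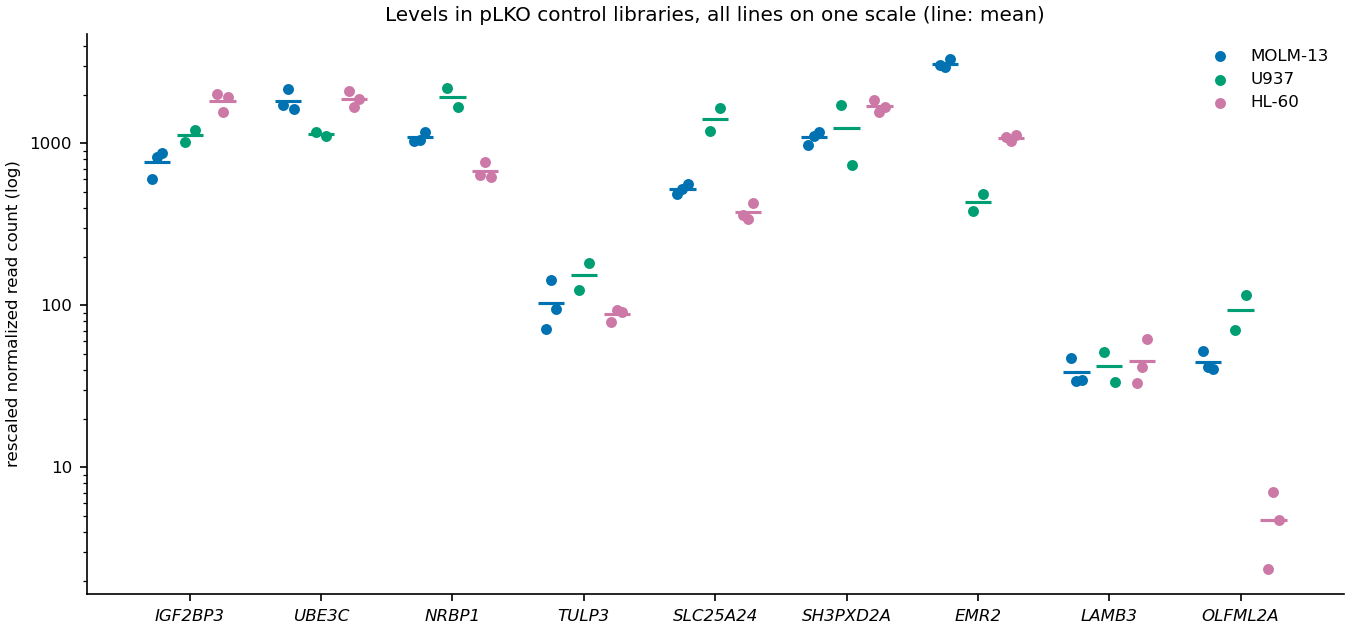
Levels of the 9 genes in the pLKO libraries, as normalized read counts rescaled to a common scale over the 3 lines (log axis), with a point for each library and a line at the mean. EMR2 is spread widely with MOLM-13 highest, OLFML2A in HL-60 sits far below the other lines, and the LAMB3 points of the 3 lines overlap.

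Single knockdown libraries differed in how far the genes rose. In HL-60, replicate 2 kept 133 RNF5 counts, a log2 ratio to the mean of the controls of -2.10, beside -3.92 and -3.71 in the other two. It showed the smallest rise of the 3 for 6 genes (IGF2BP3, UBE3C, NRBP1, SLC25A24, SH3PXD2A and EMR2). For the other 3 genes (TULP3, LAMB3 and OLFML2A) the smallest rise was in replicate 1, which kept the least RNF5. In U937, replicate 3 kept more RNF5 than replicate 1, with log2 ratios of -3.30 and -3.98, and had the smaller rise for 8 of the 9 genes, all but TULP3. Both MOLM-13 libraries had nearly equal RNF5, with -3.81 and -3.72, and shared the smaller rises 4 to 5. U937 replicate 3 and HL-60 replicate 2 also stood lower over all genes called up in their line. The medians were 0.97 against 1.23 in U937 and 0.62 against 0.66 and 0.92 in HL-60. The part of residual RNF5 in these differences was not tested.

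Across the 15 libraries the 9 genes did not follow one common pattern. Over their 36 pairs the median Pearson r of the rescaled log2 values was 0.43, with a range from -0.15 to 0.93 and 2 pairs below 0. These r values are descriptions, since the libraries fall into 6 groups and share their controls and scaling. The gene most like each member, among 10562 genes with a mean of at least 50 and above 0 in every library, was CDKN2D for NRBP1 (r = 0.975), LIMK1 for SLC25A24 (0.969), GLIPR1 for EMR2 (0.969), MYD88 for OLFML2A (0.965), EIF4EBP2 for UBE3C (0.927), ST7L for TULP3 (0.920), NUMA1 for SH3PXD2A (0.919), CDC27 for IGF2BP3 (0.893) and TMBIM6 for LAMB3 (0.887). With the deposited values in place of the rescaled ones, the nearest gene stayed the same for UBE3C, TULP3, SLC25A24 and EMR2 and was another for the other 5. The study names CDKN2D and LIMK1 among its own up-regulated genes from these data, so those matches are no independent evidence.

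To see whether close relatives and known partners of the 9 genes moved as well, 169 symbols were listed by function, with earlier results of these data known, of which 167 are in the tables. In limma, 4 of 121 tested partners rose and 0 fell in MOLM-13 (4 were lower at an unadjusted p under 0.05), where 1.03% of all genes were called up and 1.01% down (2.04% in either direction). In U937 8 of 119 rose and 7 fell, against 6.92% and 8.74% of all genes (15.7% in either direction). In HL-60 19 of 119 rose and 13 fell, against 13.6% and 12.3% (25.9% in either direction). The shares in U937 and HL-60 thus lay near those of all genes. Of the 4 rises in MOLM-13 none was called without pLKO replicate 2 or 3 or either shRNF5 library, and none of the U937 calls without pLKO replicate 2 or either shRNF5 library. In those fits 11 to 29 of 121 partners in MOLM-13 and 6 to 26 of 119 in U937 had an unadjusted p under 0.05. Called partners in HL-60 numbered 22 to 40 when single libraries were left out.

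Of the 19 direct paralogs, 12 were above 0 in some line. CD97, the closest relative of EMR2, rose with it in MOLM-13, from 2428.0 ± 467.4 (SD, n = 3) to 4194.0 ± 403.1 (SD, n = 2), with a log2 fold change of 0.80 ± 0.18 (SE) and a limma adjusted p-value of 0.0988. This call was lost in 4 of 5 fits that left out a library and under most other settings (a pseudocount of 0.5, a mean of at least 50, another scaling, no trend, a single fit and an adjusted p under 0.05), while the log2 fold change stayed between 0.70 and 0.95 with single libraries left out. It also rose in HL-60, where the means were 1162.0 ± 151.0 and 2176.3 ± 353.3 (SD, n = 3 each), by 0.90 ± 0.15 with an adjusted p-value of 0.00398 in limma, and this call held without any single library. In U937, where EMR2 rose most, CD97 had a log2 fold change of 0.59 and overlapping libraries. IGF2BP1, a paralog of IGF2BP3, rose in MOLM-13 by 0.83 ± 0.17 (limma adjusted p = 0.0853), from 2116.3 ± 347.8 (SD, n = 3) to 3745.5 ± 314.7 (SD, n = 2). It had a log2 fold change of 0.03 in HL-60 and is listed at 0 in U937. IGF2BP2 is listed at 0 in HL-60 and had log2 fold changes of 0.21 and 0.19 in MOLM-13 and U937, neither of which passed. UBE3A, a paralog of UBE3C, rose in HL-60 by 0.40 ± 0.12 (limma adjusted p = 0.0416), which was lost without pLKO replicate 1 or 2 or shRNF5 replicate 3. UBE3B was not called in any line, with log2 fold changes of 0.76, 0.32 and 0.16.

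Among the other paralogs, 2 had calls, both of them falls in HL-60. TULP4 fell there by 0.66 on the log2 scale (limma adjusted p = 0.0602), with overlapping libraries, and the call was lost without pLKO replicate 1 or 3 or shRNF5 replicate 3. In MOLM-13 (0.64) and U937 (0.30) its log2 fold changes did not pass, although every shRNF5 library was above every pLKO library. SLC25A23, a sister carrier of SLC25A24, fell in HL-60 by 0.75 ± 0.16 (limma adjusted p = 0.0113), from 423.0 ± 54.5 to 251.0 ± 28.8 (SD, n = 3 each), in the line in which SLC25A24 rose most. Its values of 0.33 in MOLM-13 and 0.19 in U937 did not pass. SLC25A25 did not pass, at 0.12, 0.86 and 0.09. NRBP2 (log2 fold changes of -0.01 in MOLM-13 and -0.17 in U937), SH3PXD2B (-0.61 and 0.40) and EMR1 (-0.11, 0.88 and 0.99 in the 3 lines) did not pass either. OLFML2B was above 0 only in U937, where its 0.48 did not pass. TUB, EMR3, OLFML3, LAMB1, LAMB2 and LAMA3 are listed at 0 in all 15 libraries. LAMA3 encodes the α chain that joins LAMB3 in laminin-332.

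Laminin chains and receptors beside LAMB3 changed in part. LAMC1, a γ chain, rose in MOLM-13 by 0.73 ± 0.15 (limma adjusted p = 0.0859), from 3339.0 ± 438.5 (SD, n = 3) to 5493.0 ± 96.2 (SD, n = 2). The α chain LAMA5 rose in HL-60 from 22.3 ± 2.5 to 43.7 ± 3.1 (SD, n = 3 each), with a limma adjusted p-value of 0.0341. ITGB1, the β subunit of laminin-binding integrins, rose in U937 by 1.17 ± 0.32 (limma adjusted p = 0.0563) and in HL-60 by 0.48 ± 0.16 (0.0602), with overlapping libraries in HL-60, where the call was lost in 5 of 6 fits that left out a library. ITGB1 is a gene that the study lists among its own up-regulated genes, so it is no independent evidence. COL7A1, the collagen of anchoring fibrils, fell in U937 by 1.68 on the log2 scale (limma adjusted p = 0.0244). The list had 1 rise and 0 falls among 6 tested genes in MOLM-13, 1 and 1 of 9 in U937 and 4 and 1 of 7 in HL-60. Of all genes 1.03%, 6.92% and 13.6% were called up in these lines and 1.01%, 8.74% and 12.3% down. This short list, which includes ITGB1, was not tested as a set.

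Among the partners of SH3PXD2A in invadopodia and podosomes, MMP2, SRC and CYBA rose in HL-60. MMP2, a matrix metalloproteinase, rose there from 306.7 ± 82.1 to 1187.3 ± 442.7 (SD, n = 3 each), by 1.91 ± 0.26 (SE) on the log2 scale with a limma adjusted p-value of 0.00177. SRC, the kinase that phosphorylates SH3PXD2A, rose from 16.7 ± 4.9 to 64.0 ± 25.5 (limma adjusted p = 0.00759), and CYBA, the p22phox subunit of NADPH oxidase, by 1.18 ± 0.19 (limma adjusted p = 0.00345). These 3 calls held without any single library. NOXA1, an activator of that oxidase, fell in U937 by 1.95 on the log2 scale (limma adjusted p = 0.0312). VCL, the adhesion protein vinculin, rose in MOLM-13 (0.92) and U937 (0.99) and had a log2 fold change of -0.04 with overlapping libraries in HL-60, and it is named after its values were seen. The list had 1 rise and 0 falls of 22 in MOLM-13, 2 and 1 of 23 in U937 and 3 and 2 of 21 in HL-60. In MOLM-13 4.55% of the list rose, beside 1.03% of all genes. In U937 8.70% rose and 4.35% fell, beside 6.92% and 8.74%. In HL-60 14.3% rose and 9.52% fell, beside 13.6% and 12.3%.

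Among the HECT ligases that resemble UBE3C, 0 of 24 were called in MOLM-13 by limma, with 7 at an unadjusted p under 0.05. In U937 HECTD3 rose by 0.81 ± 0.28 (limma adjusted p = 0.0985), whereas HACE1 fell by 1.09 ± 0.29 (0.0526) and HERC5 by 0.91 ± 0.30 (0.0864), 1 rise and 2 falls of 24. These were 4.17% and 8.33%, beside 6.92% and 8.74% of all genes. In HL-60 5 of 26 rose (19.2%, beside 13.6% of all genes) and 3 fell (11.5%, beside 12.3%). HERC5, an interferon-induced ligase for ISG15, rose there by 0.59 ± 0.11 (limma adjusted p = 0.00654). HECW2 fell by 1.94 ± 0.53 (limma adjusted p = 0.0284), at low values of 26.3 ± 4.7 with pLKO and 7.3 ± 5.0 with shRNF5 (SD). Ubiquitin factors bound to the proteasome had 0 calls of 11 in MOLM-13 (0 at an unadjusted p under 0.05 in limma), 1 rise in U937 and 2 rises in HL-60. The rises were 9.09% and 18.2% of the list, beside 6.92% and 13.6% of all genes.

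Partners of NRBP1 moved in both directions. TSC22D3 (GILZ), a glucocorticoid-induced member of the TSC22 family, rose in HL-60 from 153.0 ± 23.1 to 516.7 ± 165.5 (SD, n = 3 each), by 1.71 ± 0.23 with a limma adjusted p-value of 0.00177, and went from 3173.5 ± 1614.3 to 863.5 ± 461.7 (SD, n = 2 each) in U937, a log2 fold change of -1.89 ± 0.41 (limma adjusted p = 0.0314). TSC22D1 fell in U937 by 0.86 ± 0.26 (limma adjusted p = 0.0748). The ubiquitin ligase scaffold CUL2 rose in U937 by 1.00 ± 0.25 (limma adjusted p = 0.0439). WNK1, a kinase that works with NRBP1 and TSC22 proteins in volume control, rose in U937 by 0.71 ± 0.23 (limma adjusted p = 0.0891) and fell in HL-60 by 0.58 ± 0.16 (0.0324), where the call was lost without pLKO replicate 1 or 3 or shRNF5 replicate 3. In MOLM-13, where 2.04% of all genes were called, limma called 0 of these 12 genes, and 2 had an unadjusted p under 0.05. In U937 2 of 12 rose and 2 fell (16.7% each), beside 6.92% up and 8.74% down of all genes. In HL-60 3 of 11 rose and 1 fell (27.3% and 9.09%), beside 13.6% and 12.3% of all genes. This short list was not tested as a set.

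Of the ciliary partners of TULP3, none was called up in any line in limma. IFT20, a ciliary transport subunit, fell in U937 from 500.0 ± 60.8 to 152.5 ± 40.3 (SD, n = 2 each), by 1.73 ± 0.33 (limma adjusted p = 0.0223). WDR35, a subunit of the IFT-A complex that TULP3 binds, fell in HL-60 by 0.92 ± 0.20 (limma adjusted p = 0.0116). Of 16 tested genes, 0 were called in MOLM-13, 1 fell in U937 and 2 fell in HL-60. The falls were 6.25% and 12.5% of the list, beside 8.74% and 12.3% of all genes, so they lay near the shares of all genes. Of all genes 1.03%, 6.92% and 13.6% were called up in MOLM-13, U937 and HL-60. At an unadjusted p under 0.05 in limma, 3 of the 16 were higher in MOLM-13 and 0 in U937 and HL-60. The list was not tested as a set. Mitochondrial carriers and calcium factors beside SLC25A24 had 0 calls of 15 in MOLM-13 (1 at an unadjusted p under 0.05 in limma), 1 rise of 14 in U937 and 1 rise and 2 falls of 15 in HL-60. In U937 7.14% rose, beside 6.92% of all genes. In HL-60 6.67% rose and 13.3% fell, beside 13.6% and 12.3%. SLC25A13, the aspartate-glutamate carrier, rose in U937 by 0.77 ± 0.25 (limma adjusted p = 0.0838). In HL-60 the calcium uniporter regulator MICU2 rose by 0.49 ± 0.12 (limma adjusted p = 0.0171), and LETM1, an inner membrane protein of cation exchange, fell by 0.55 ± 0.11 (0.00936).

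Among the partners of IGF2BP3, HMGA2, an oncofetal chromatin protein, fell in HL-60 from 173.7 ± 64.7 to 52.3 ± 16.2 (SD, n = 3 each), by 1.69 ± 0.30 with a limma adjusted p-value of 0.00566. This list had 1 rise of 7 in MOLM-13, 0 calls of 5 in U937 (0 at an unadjusted p under 0.05 in limma) and 1 fall of 6 in HL-60. Among the adhesion receptors beside EMR2 and CD97, BAI1 fell in HL-60 by 0.59 ± 0.19 (limma adjusted p = 0.0535), a call lost without pLKO replicate 2 or 3 or shRNF5 replicate 1. This list had 1 rise of 8 in MOLM-13, 0 calls of 5 in U937 (0 at an unadjusted p under 0.05 in limma) and 2 rises and 1 fall of 7 in HL-60. Of all genes 1.03% were called up in MOLM-13, 15.7% in either direction in U937, and 13.6% up and 12.3% down in HL-60. Lists this short were not tested as sets. The other olfactomedin genes had 0 calls in limma, of 1 tested in HL-60, 2 in U937 and 2 in MOLM-13, and 0 at an unadjusted p under 0.05. The pseudogene EMR4P had at most 150 normalized read counts in MOLM-13, 103 in HL-60 and 0 in U937, far below EMR2 in each line.

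**Figure D4:**
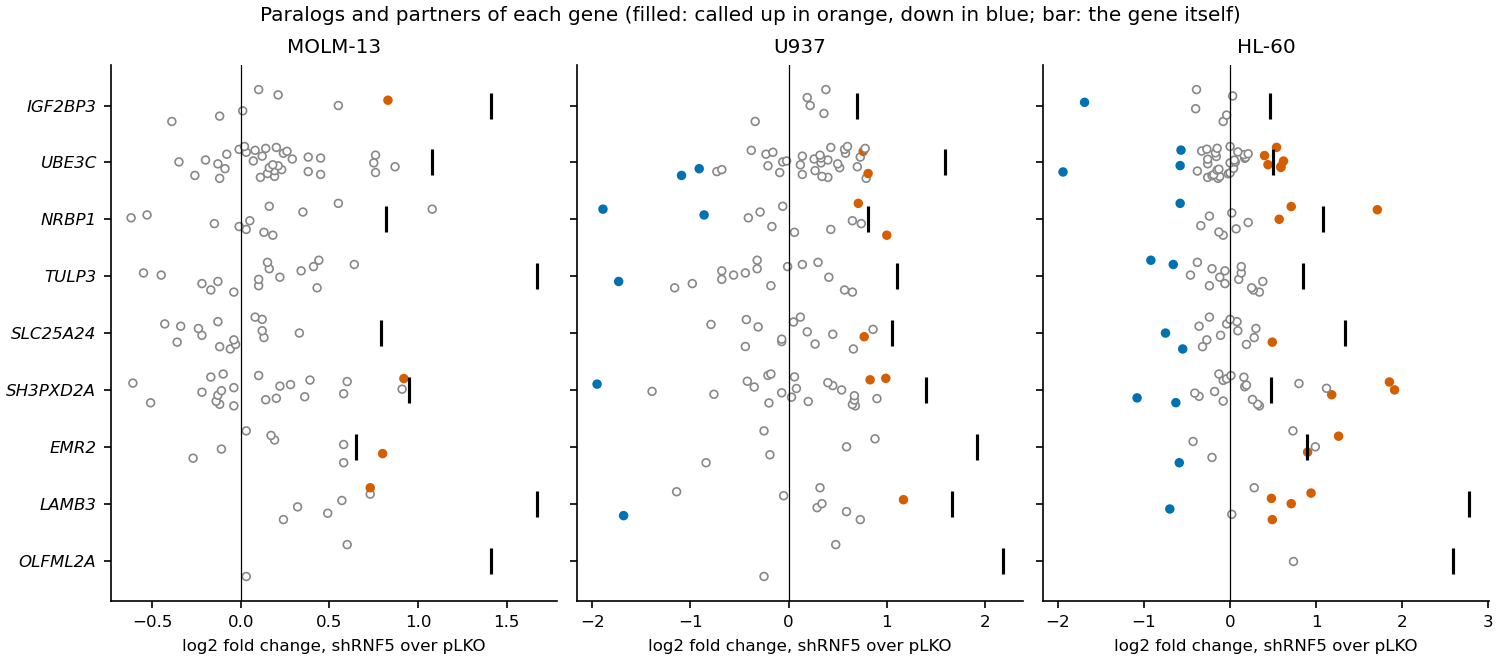
Log2 fold change of shRNF5 over pLKO for the paralogs and partners of each gene in each line (circles, filled orange where called up and blue where called down), with a black bar for the gene itself. In MOLM-13 4 circles are filled, in U937 the fills lie on both sides of 0, and most circles lie to the left of the bar of their gene.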

How the data were processed

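RNA-seq libraries of MOLM-13, U937 and HL-60 with pLKO or shRNF5 were grouped by the sample labels, 15 in all. The authors trimmed reads (Cutadapt), mapped them to hg19 (STAR), counted by gene (featureCounts) and normalized line by line (edgeR in SARTools). Values were deposited as a score, read counts scaled and rounded by the authors, with genes that failed their filter listed at 0. limma 3.58.1 (R 4.3.3) with a mean-variance trend was run on log2(value + 1) in each line over all genes above 0, with Benjamini-Hochberg adjustment over all of them. Differences between lines came from a single fit over 15 libraries. Depth was estimated from the spacing of rounded values, and no counting interval can be given. Both steps were tested on simulated data. The simulation for the fit gave all libraries the same scaling factor, so it does not cover the difference in depth between the MOLM-13 groups. No 2 libraries held identical values.

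The 9 genes and the partner lists were chosen with earlier results of these data known. The text names the 9 genes, RNF5, direct paralogs, up to 4 called partners per gene by largest change, the gene nearest to each, and 3 genes just outside the rule. Alternatives were pseudocounts of 0.5 and 10, a mean of at least 50, other scalings, no trend, a single fit, an adjusted p-value under 0.05, a replicate block and leaving out each library. Some results for single genes are not reported here. A crossed block was added after the data were seen. Coordinates came from GENCODE (GRCh37) and promoters from RefSeq (GRCh38.p14).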

Additional observations from a re-analysis of the deposited data

Results flagged for a closer look

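In 10 of the partner genes named in the text all shRNF5 libraries of 1 line lay above its pLKO libraries while all those of another lay below, and the difference between lines was not tested for any of them. The log2 fold changes of TSC22D3 were 1.08, -1.89 and 1.71 for MOLM-13, U937 and HL-60, and those of WNK1 were 0.55, 0.71 and -0.58. Between U937 and HL-60 the pairs of values were 1.00 and -0.08 for CUL2, -0.91 and 0.59 for HERC5, -1.14 and 0.94 for LAMA5, 0.66 and -0.55 for LETM1, and -1.95 and 0.80 for NOXA1. Between MOLM-13 and HL-60 they were 0.55 and -1.69 for HMGA2, -0.36 and 0.49 for MICU2, and 0.44 and -0.92 for WDR35. Over all partners, 22 of 130 (16.9%) were split between lines in this way, and of all 14906 genes tested in any line 16.9% were, so the share of partners was that of all genes.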

How the results depend on the processing

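All 350 alternative log2 fold changes of the 9 genes were above 0, between 0.33 and 3.04, and 1 of them moved by more than the spread between replicates. The choice of genes fixes this direction. Counts of calls depended far more on the settings. In MOLM-13, 266 genes were called, 4 of them partners, and without the mean-variance trend these were 55 and 0, at an adjusted p-value under 0.05 39 and 0, and with a replicate block 738 and 12. Of the 9 genes, 2 were called there without the trend and 1 at 0.05. A single fit over all 15 libraries called 21 partners in HL-60, 38 in U937 and 2 in MOLM-13, and 3994 genes in U937. In U937, where 2062 genes and 15 partners were called, 475 and 1 were called without the trend and 824 and 6 at 0.05, with 3 and 4 of the 9 genes. Where 0 partners were called in MOLM-13 by limma, 18 (no trend) and 25 (at 0.05) of 121 had an unadjusted p under 0.05. With single libraries left out, genes called ranged from 1970 to 3413 in HL-60, from 0 to 2369 in U937 and from 1 to 872 in MOLM-13, partners from 22 to 40, 0 to 19 and 0 to 8, and the 9 genes from 6 to 9, 0 to 6 and 0 to 9. For the 0 genes in U937, 2420 (without pLKO replicate 2) and 1084 (without shRNF5 replicate 1) of 13165 had an unadjusted p under 0.05 in limma. Whether replicate numbers pair the libraries was not settled. The deviations of same-numbered libraries correlated at 0.505, 0.156 and -0.109 in HL-60, beside -0.596 to 0.396 for differently numbered ones. In MOLM-13 they correlated at -0.173 and -0.53. With 2 shRNF5 libraries there the deviations mirror each other, so pLKO replicate 2 correlated at 0.53 with shRNF5 replicate 1. A crossed replicate block in MOLM-13, added after seeing the data, called 2916 genes and 32 partners. In HL-60 the replicate block kept the counts within 1.5 times. The single same-numbered pair in U937 correlated at 0.256. No paired analysis was possible because of too few shared numbers in U937, where the groups share 1, and MOLM-13 and HL-60 were fitted with the block. Of 54 alternative baseline values 3 moved beyond the spread, and of 1227 values of named partners 107 lost a call, 28 gained a call and 0 changed direction. Depth limits genes with low values, such as OLFML2A in HL-60.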
